A study of Mus musculus with 8 samples.

Results

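Csf1r, the receptor of colony-stimulating factor 1, was followed here with its ligand genes Csf1 and Il34 and with Pdgfrb, the gene annotated next to Csf1r in the mouse genome. The 4 genes were chosen by their names and by measured values of the comparison described below. Csf1r had been seen higher in the cells with the hairpin labelled shGrhl3, while leukocyte markers were lower. They are 4 of 53921 rows that name a gene in the deposited count table. All 4 were among the 15324 genes with enough counts to be tested.

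The cells were mouse induced cardiomyocytes, which are fibroblasts pushed towards a heart muscle identity by forced transcription factors. Every library came from cells given the MGT mix, the usual shorthand for the cardiac factors Mef2c, Gata4 and Tbx5, and is labelled day 5. The control group, MGT+shNT, carried the hairpin labelled shNT, and the other group, MGT+shGrhl3, a hairpin against the transcription factor gene Grhl3. RNA-seq gave 2 libraries per group, with 16104243 to 19823397 counts each. The cell type label reads "Induced cardiomyocytes(Neo)", and no strain or age is given. Nothing in the labels says that the 2 libraries of a group are separate cultures, and each p-value then reflects no more than how far these libraries scatter, possibly for technical reasons.

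Csf1 and Il34 encode secreted or cell-surface cytokines that bind the same receptor, Csf1r, although their amino acid sequences are not alike. Csf1r is a tyrosine kinase best known for the survival and growth of macrophages and their precursors, and it is read in trophoblast as well from a separate upstream promoter. Pdgfrb encodes the beta receptor for platelet-derived growth factors, a kinase of the same class, typical of fibroblasts, pericytes and smooth muscle cells. Csf1 is made by many mesenchymal cells, including fibroblasts, whereas Il34 is best known from skin and brain.

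Of the 4 genes, only Csf1 had an entry in the RefSeq promoter table used here, and the 250 bases upstream of its start are shown because Csf1 is the ligand gene whose level these libraries measured well. The stretch is chr3:107760470-107760719 on GRCm38.p6, minus strand, read 5′ to 3′ towards the start, and its capitals mark 3 motif matches.
Csf1 upstream: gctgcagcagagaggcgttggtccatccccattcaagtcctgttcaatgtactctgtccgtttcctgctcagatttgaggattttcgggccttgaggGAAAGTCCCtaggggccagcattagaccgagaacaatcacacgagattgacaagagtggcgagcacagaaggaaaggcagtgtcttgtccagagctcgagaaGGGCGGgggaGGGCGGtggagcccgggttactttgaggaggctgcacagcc
The matches on this strand are 2 copies of the GC box GGGCGG, beginning 51 and 41 bases before the start, and 1 match on the opposite strand to GGGACTTTC, a form of the kappaB motif, whose stretch begins 153 bases before the start. Among 32851 upstream windows of that length in the table, searched on both strands, 32.7% held a GC box and 0.289% held GGGACTTTC. The Grainyhead-like motif AACCGGTT, present in 0.116% of windows, and the AP-1 motif TGACTCA, in 4.46%, were not in these 250 bases. The motifs searched do not overlap in this window.

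On GRCm38.p6, the assembly behind mm10, RefSeq places Pdgfrb at chr18:61045127-61085067 and Csf1r at chr18:61105572-61131139, whole genes with exons and introns. A stretch of 20504 bases separates them, with 0 annotated genes in between. The far side of Csf1r ends 137 bases from Hmgxb3. Csf1 lies at chr3:107741048-107760469 and Il34 at chr8:110741829-110805949. Genes overlapping the members that have a row in the table, namely Mir6983 within Csf1r and Gm15894 and Gm15895 at Il34, had 0 counts in all 4 libraries. The RefSeq lncRNA genes Gm52352 (within Csf1r), Gm40121 (over Csf1) and Gm39250 (within Il34) had no row under those symbols.

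Grhl3, the hairpin target, was counted 31 and 14 times in shNT and 11 and 19 times in shGrhl3. The groups overlapped and the difference did not pass the test (edgeR quasi-likelihood, a log2 fold change of -0.69 with an SE of 0.56, adjusted p = 0.362). The knockdown could therefore not be checked at this depth. Columns of the count table are headed shGrhl1 and shGrhl2 and were read as replicates 1 and 2 of shGrhl3, the only target the labels name. Taken literally, the headings would mean Grhl1 and Grhl2 as targets, and every value given for shGrhl3 rests on the reading as replicates. Defining cardiomyocyte and fibroblast genes were present in every library, among them Tnnt2 at 3105 to 3311 CPM (the count relative to the library's total, scaled by TMM factors) and Col1a2 at 1968 to 2252 CPM. Of all genes tested, 35.0% passed an adjusted p of 0.05, 17.1% as higher and 17.9% as lower in shGrhl3 cells.

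Csf1r and Csf1 stood higher in the shGrhl3 libraries, Pdgfrb stood lower and Il34 stayed near the limit of detection. In the fit across all genes 3 of the 4 passed the threshold, 2 as higher and 1 as lower, beside the 35.0% of all genes. Since the same comparison chose the members, that count and the values that follow are a description, and no p is given for them.

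The receptor gene Csf1r was counted 139 and 115 times in shNT and 373 and 320 times in shGrhl3. On the CPM scale these are 7.26 and 7.24 in shNT and 18.6 and 17.1 in shGrhl3. Both shGrhl3 libraries lie above both shNT libraries, with means of 7.25 ± 0.0153 and 17.9 ± 1.04 CPM (SD, n = 2). The small SD of shNT is no measure of precision. Exact Poisson 95% intervals of its counts, for counting error only, run from 117 to 164 and from 94.9 to 138. The log2 fold change was 1.30 (SE 0.16), or 2.46-fold, and stayed between 1.24 and 1.38 under every alternative tried, those that leave out a library included.

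Csf1, the ligand gene, had 16342 and 14229 counts in shNT and 29109 and 26718 in shGrhl3. Its level was 854 and 896 CPM in shNT against 1452 and 1430 CPM in shGrhl3. The groups did not overlap, and the means were 875 ± 29.8 and 1441 ± 15.2 CPM (SD, n = 2). The log2 fold change of 0.72 (SE 0.08), or 1.65-fold, ranged from 0.68 to 0.76 over the alternatives. Ligand and receptor counts did not move in proportion. A library held 118 and 124 Csf1 counts per Csf1r count in shNT, and 78.0 and 83.5 in shGrhl3.

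Il34, the other ligand gene, was counted 18 and 16 times in shNT and 28 and 10 times in shGrhl3. The exact Poisson 95% intervals, which cover counting error only, run from 10.7 to 28.4 and from 9.15 to 26.0 counts in shNT, and from 18.6 to 40.5 and from 4.80 to 18.4 in shGrhl3. The shGrhl3 libraries lie on either side of both shNT libraries, at 1.40 and 0.535 CPM around 0.941 and 1.01 CPM. The log2 fold change was -0.00 (SE 0.66), and leaving out shGrhl3 replicate 1 gave -0.85 while leaving out shGrhl3 replicate 2 gave 0.54, so its direction rests on single libraries. Il34 made up 0.0374% to 0.112% of the counts of both ligand genes in a library, a share of counts that is not corrected for gene length.

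Pdgfrb had 7132 and 6756 counts in shNT and 6148 and 5825 in shGrhl3. Its level was 373 and 425 CPM in shNT and 307 and 312 CPM in shGrhl3. The groups did not overlap, with means of 399 ± 37.3 and 309 ± 3.67 CPM (SD, n = 2), and the shNT libraries lay farther apart than the shGrhl3 libraries. The log2 fold change was -0.37 (SE 0.08), a level 1.29-fold lower. Leaving out shNT replicate 1 gave -0.46 and leaving out shNT replicate 2 gave -0.27, and in the latter fit Pdgfrb no longer passed the threshold.

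**Figure D1:**
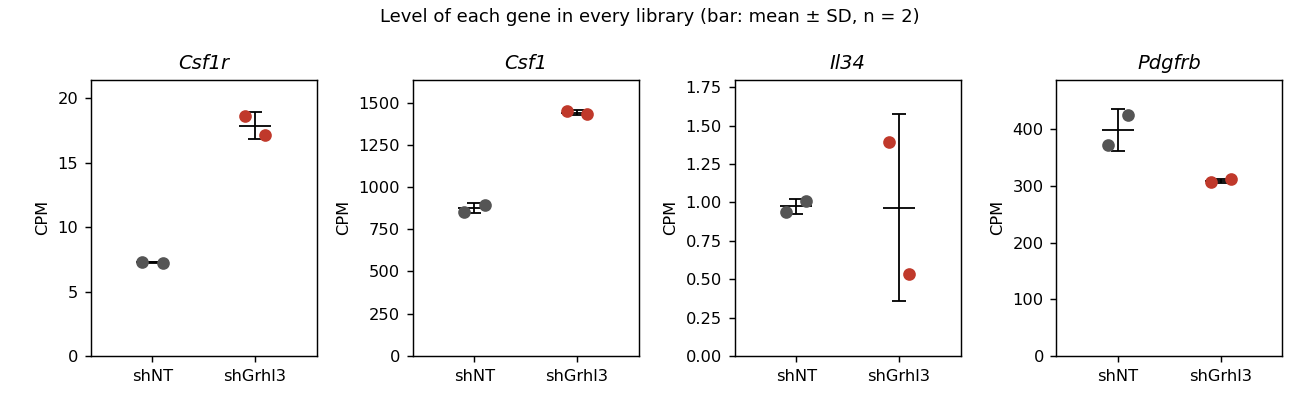
Level in CPM (vertical axes, each from 0) of Csf1r, Csf1, Il34 and Pdgfrb in the shNT (grey) and shGrhl3 (red) libraries, with 1 point per library and the mean ± SD of 2 libraries in black. Csf1r and Csf1 are higher and Pdgfrb is lower in both shGrhl3 libraries, while the Il34 points of shGrhl3 lie on either side of the shNT points.

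The genomic neighbours Pdgfrb and Csf1r thus differed in opposite directions. That Pdgfrb was lower rests on how libraries are scaled to each other, and its log2 fold change was -0.36 with DESeq2 size factors and -0.34 with library size alone. Within a library, the share of Csf1r in the counts of the pair was 1.91% (95% Wilson interval 1.62 to 2.25) and 1.67% (1.40 to 2.01) in shNT. In shGrhl3 it was 5.72% (5.18 to 6.31) and 5.21% (4.68 to 5.79). The mean share was 3.05 times as high in shGrhl3 as in shNT. This share needs no scaling but does not show which of the genes differed, it holds the values that chose Csf1r, and its intervals cover counting error only, while libraries of a group differed by more than that. The sources used here do not say how reads on adjoining genes were assigned.

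Among the protein-coding genes around the pair, some were higher and none of those tested passed as lower. Of the 5 annotated on each side, 8 of 10 had a row and 6 were tested, of which 3 were higher, 0 lower and 3 did not pass, beside 17.1% higher and 17.9% lower among all genes. Their median log2 fold change was 0.47, against -0.01 for all genes tested. Camk2a, a subunit of a calcium-dependent kinase on the Pdgfrb side, rose from 37.9 and 38.5 to 58.6 and 51.8 CPM (a log2 fold change of 0.53 with an SE of 0.11, adjusted p = 0.000384). Ppargc1b, a coactivator of mitochondrial genes on the Csf1r side, rose from 2.93 and 2.39 to 6.38 and 7.33 CPM (a log2 fold change of 1.36 with an SE of 0.26, adjusted p = 0.000257). The third, Slc26a2, a sulfate transporter gene, passed at a log2 fold change of 0.41 (adjusted p = 0.0139). That call was lost without shNT replicate 2 (0.29) and without shGrhl3 replicate 2 (0.24).

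Hmgxb3, the gene directly beyond Csf1r, did not pass. It stood at 46.3 and 46.8 CPM in shNT and 42.3 and 48.1 CPM in shGrhl3 (log2 fold change -0.04, adjusted p = 0.797). Cdx1, a homeobox gene on the Pdgfrb side, had 0 counts in every library. Around Csf1, the nearest tested gene on the left, Ahcyl1, had a log2 fold change of -0.01 and did not pass (adjusted p = 0.954). Of 6 tested neighbours of Csf1 only Slc6a17, a transporter gene, passed, as lower (log2 fold change -0.66, adjusted p = 0.0108), a call lost without shNT replicate 2 (-0.50). Around Il34, 9 neighbours were tested, of which Mtss2 was lower (-0.48, adjusted p = 0.00209) and Ddx19a (0.52, adjusted p = 0.000294) and St3gal2 (0.35, adjusted p = 0.00522) were higher. The St3gal2 call was lost without shNT replicate 1 (0.30). Over the 3 loci, 5 of 21 tested neighbours were higher and 2 lower, a combined share no larger than the 35.0% of all genes.

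**Figure D2:**
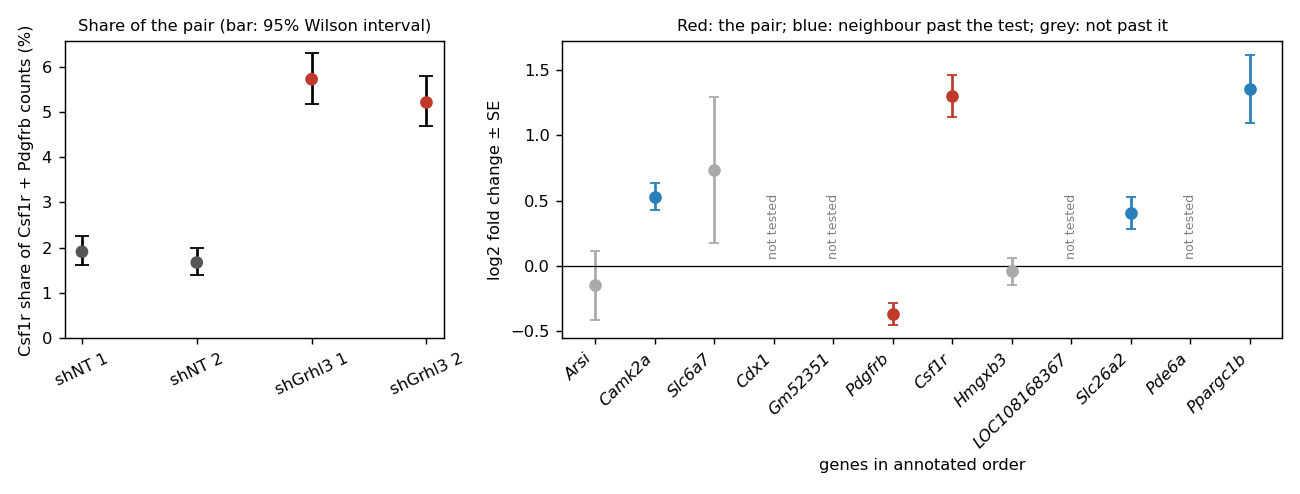
Left, share of Csf1r in the summed counts of Csf1r and Pdgfrb (percent, from 0) in each library with 95% Wilson intervals, between 1.67% and 1.91% in shNT and between 5.21% and 5.72% in shGrhl3. Right, log2 fold change ± SE of shGrhl3 against shNT for Pdgfrb, Csf1r (red) and the 5 annotated protein-coding genes on each side in genome order, where Hmgxb3 beside Csf1r lies near 0.

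Csf1r is the textbook mark of macrophages, yet the markers of leukocytes were lower in the same shGrhl3 libraries. Of 30 listed leukocyte markers, with Csf1r left out, 21 were tested. Of these, 0 were higher, 19 lower and 2 did not pass, beside 17.1% higher and 17.9% lower among all genes. Their median log2 fold change was -2.47, beside -0.01 for all genes tested. Their fall had been seen in earlier results of these data and was part of why Csf1r was chosen, so these counts and the values of the markers are a description, nothing is read from them and no p is given. With only genes at 1 CPM or more in all 4 libraries, fewer markers were tested and 12 passed as lower.

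Ptprc, the pan-leukocyte phosphatase CD45, had 139 and 101 counts in shNT and 19 and 22 in shGrhl3. Cd68, a lysosomal glycoprotein of macrophages, stood at 28.9 and 38.4 CPM in shNT and 6.43 and 5.67 CPM in shGrhl3, a log2 fold change of -2.47 (SE 0.16). Adgre1, which encodes the macrophage antigen F4/80, stood at 3.97 and 6.17 CPM against 0.549 and 0.803 CPM, and the integrin gene Itgam at 1.88 and 3.15 against 0.399 and 0.375 CPM. For each of these defining markers both shGrhl3 libraries lay below both shNT libraries. Groups that do not overlap, in either direction, were also seen in lists described below. This held for 32 of 39 tested receptor-proximal signalling genes and 6 of 10 endothelial markers. The share among all genes tested was not counted, so nothing is read from the separation of the groups. The fifth defining marker, Spi1, which encodes the macrophage factor PU.1, overlapped between the groups, at 1.05 and 2.33 CPM in shNT and 1.55 and 0.321 CPM in shGrhl3. Its log2 fold change was -0.82, and -2.35 without shGrhl3 replicate 1. The genes of the list with the lowest p were Ctss, Cd68, Mpeg1 and Ms4a7, and Ctss, Mpeg1 and Ms4a7 had log2 fold changes of -3.23, -3.24 and -3.28.

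The summed level of the whole marker list was 727 and 1002 CPM in shNT and 157.5 and 125 CPM in shGrhl3. Without Lyz2, the lysozyme gene that dominates it, the sum was 273 and 356 against 56.0 and 49.6 CPM. The level of Csf1r, which is not part of that reduced sum, equalled 2.66% and 2.03% of it in shNT and 33.2% and 34.6% in shGrhl3, a ratio of CPM values that is not corrected for length. There were 100 and 87.8 Ptprc counts for every 100 Csf1r counts in shNT, and 5.09 and 6.88 in shGrhl3. Such ratios of Csf1r and leukocyte markers hold the values by which Csf1r was chosen. They are a description, and nothing is read from them. In these bulk libraries fewer leukocytes and less marker RNA per leukocyte cannot be told apart. Which cells carried the marker reads, and which the Csf1r reads, was not tested.

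**Figure D3:**
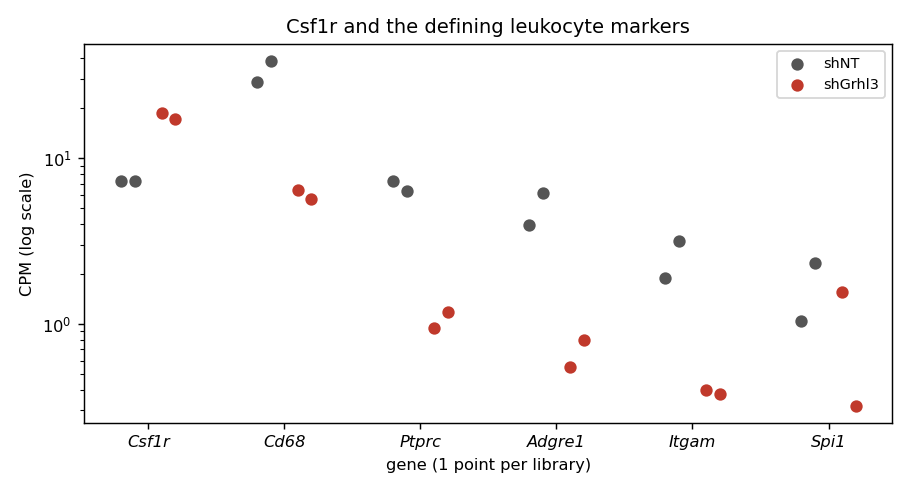
Level in CPM (log axis) of Csf1r and of the defining leukocyte markers Cd68, Ptprc, Adgre1, Itgam and Spi1, with 1 point per library, shNT grey and shGrhl3 red. Csf1r is higher in both shGrhl3 libraries, Cd68, Ptprc, Adgre1 and Itgam are lower, and Spi1 overlaps.

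Genes for factors with textbook links to Csf1r transcription in macrophages were mixed. Of 12 tested, 3 were higher, 4 lower and 5 did not pass, beside 17.1% higher and 17.9% lower among all genes. Their median log2 fold change was -0.30. Ets2 rose from 41.3 and 42.1 to 68.5 and 72.5 CPM (a log2 fold change of 0.76 with an SE of 0.10, adjusted p = 2.15e-06). Cbfb, the partner subunit of Runx factors, rose from 92.4 and 91.8 to 122 and 123 CPM (adjusted p = 0.000704), whereas Runx1 itself was lower at the edge of the threshold (log2 fold change -0.34, adjusted p = 0.0392). The remaining higher factor gene, Cebpa, also passed at the edge of the threshold (log2 fold change 0.44, adjusted p = 0.0463). With DESeq2 the count of higher factors was 2. The ETS-family genes Fli1 and Elf1 fell, with log2 fold changes of -0.86 and -0.60 (adjusted p = 5.45e-05 and 2.72e-05). Irf8, which is on the leukocyte list as well, as is Spi1, had a log2 fold change of -1.16. The Irf8 call was lost without shNT replicate 2 (-0.91), and the Runx1 call in each fit that left out a library, where it stood between -0.40 and -0.29. With all libraries, the Runx1 call was also lost with DESeq2, with library size alone and with no filter on low counts. Without shNT replicate 2 the count of lower factors was 2 instead of 4.

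The remaining colony-stimulating factors were close to the floor. Il3 had 0 counts in all 4 libraries. Csf2, Csf3 and Csf3r had 0 counts in both shNT libraries and 0 to 5 in shGrhl3, too few to be tested. Csf2rb, a shared receptor subunit, fell from 6.11 and 5.67 to 3.04 and 2.41 CPM (a log2 fold change of -1.11 with an SE of 0.27, adjusted p = 0.00236). Its near-identical paralog Csf2rb2 fell from 2.98 and 3.72 to 0.948 and 1.28 CPM (a log2 fold change of -1.58 with an SE of 0.39, adjusted p = 0.00270), and how reads fitting both were counted is unknown. Both are genes of blood cells and were lower beside the leukocyte markers. Csf2ra and Il3ra did not pass.

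Membrane Csf1 and the outer part of Csf1r are cut from the cell by the sheddase Adam17, helped by the iRhom proteins, and gamma-secretase then cuts the stub of the receptor. Of 11 genes listed for ligand release and cleavage, 4 were higher, 4 lower and 3 did not pass, beside 17.1% and 17.9% of all genes. Adam10, a related sheddase, fell from 327 and 314 to 139.5 and 147 CPM (a log2 fold change of -1.16 with an SE of 0.08, adjusted p = 2.33e-10). Adam17 fell from 145 and 141 to 104 and 105 CPM (a log2 fold change of -0.45 with an SE of 0.09, adjusted p = 0.000224). Furin, a protease that matures many precursors, ADAM sheddases among them, rose from 112 and 104 to 204 and 231 CPM (a log2 fold change of 1.01 with an SE of 0.09, adjusted p = 7.91e-09). Aph1a, a gamma-secretase subunit, rose from 66.4 and 65.5 to 111 and 97.3 CPM (a log2 fold change of 0.66 with an SE of 0.09, adjusted p = 7.94e-06). Of the other gamma-secretase genes, Psen2 was among the lower (-0.48) and Ncstn among the higher (0.31), the latter not without shNT replicate 1 (0.27).

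Il34 can also bind the phosphatase Ptprz1 and the proteoglycan Sdc1. Sdc1 rose from 28.6 and 30.0 to 60.5 and 60.4 CPM (a log2 fold change of 1.05 with an SE of 0.10, adjusted p = 4.98e-08). Ptprz1 stood at 87.4 and 55.0 CPM in shNT and 95.9 and 107 CPM in shGrhl3 and did not pass (log2 fold change 0.51, adjusted p = 0.166), although it passed under several alternatives, among them limma-voom (0.53), no filter on low counts (0.51) and the fit without shNT replicate 1 (0.88). Il34 itself was at the floor of these libraries, as given above.

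Among the other class III receptor kinases and their ligands, 8 of 9 were tested, of which 3 were higher and 2 lower. Of all genes tested, 17.1% were higher and 17.9% lower. Pdgfb, the ligand gene whose product binds Pdgfrb most directly, rose from 3.71 and 4.03 to 14.5 and 11.8 CPM (a log2 fold change of 1.77 with an SE of 0.20, adjusted p = 3.98e-07). Pdgfd, another ligand of that receptor, fell from 10.2 and 10.8 to 4.89 and 6.05 CPM (a log2 fold change of -0.94 with an SE of 0.20, adjusted p = 0.000712). Pdgfa and Pdgfc, whose homodimers act mainly on the alpha receptor, passed as higher at 0.66 and 0.42 (adjusted p = 9.17e-06 and 0.00781), and the Pdgfc call was lost without shNT replicate 2 (0.37). The alpha receptor Pdgfra, the sister gene of Pdgfrb, fell from 79.8 and 107 to 40.3 and 44.2 CPM (a log2 fold change of -1.14 with an SE of 0.12, adjusted p = 1.05e-06). Kit, Kitl and Flt3l did not pass, and Flt3 had too few counts to be tested.

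Adaptors, kinases and phosphatases that act on activated Csf1r or Pdgfrb were lower more than higher among those that passed. Of 39 tested, 4 were higher, 15 lower and 20 did not pass, beside 17.1% and 17.9% of all genes, with a median log2 fold change of -0.21. Pik3cd, the delta catalytic subunit of PI3-kinase best known from leukocytes, rose from 13.4 and 14.9 to 29.6 and 32.7 CPM (a log2 fold change of 1.14 with an SE of 0.13, adjusted p = 3.29e-07). The adaptor gene Nck2 fell from 41.0 and 50.2 to 24.6 and 23.8 CPM (adjusted p = 2.43e-06), and Shc1 from 135 and 136 to 88.5 and 86.7 CPM (adjusted p = 4.62e-06). The docking gene Gab2 fell from 40.3 and 44.1 to 21.3 and 27.1 CPM (adjusted p = 2.11e-05). With DESeq2, with library size alone and with the replicate number as a block, the count of lower genes was 13 instead of 15. The count of higher genes was 4, 5 and 4 in these fits.

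**Figure D4:**
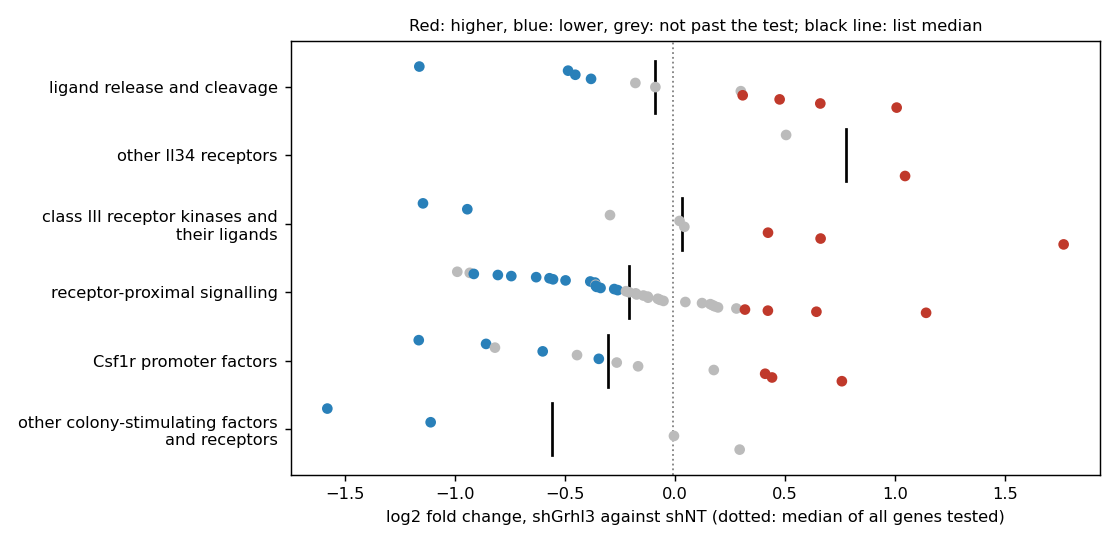
Log2 fold change of shGrhl3 against shNT (horizontal axis) for the tested genes of 6 lists around the Csf1 axis and its receptor class, 1 point per gene, red where higher, blue where lower and grey where the test was not passed. Black lines mark list medians, -0.21 for receptor-proximal signalling, and the dotted line the median of all genes tested (-0.01).

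Pdgfrb is shared by fibroblasts and mural cells. Of 13 tested mural cell and smooth muscle markers, 3 were higher, 3 lower and 7 did not pass, beside 17.1% and 17.9% of all genes. Their median log2 fold change was -0.16, with summed levels of 3675 to 3761 CPM in shNT and 3708 to 3902 CPM in shGrhl3. Cspg4, the pericyte proteoglycan NG2, rose from 60.0 and 50.4 to 96.1 and 101 CPM (a log2 fold change of 0.84 with an SE of 0.10, adjusted p = 6.63e-07). Des, the muscle intermediate filament also made by cardiomyocytes, rose as well (0.61, adjusted p = 1.47e-06), and Tagln fell (-0.51, adjusted p = 2.30e-05). Cnn1, a smooth muscle gene, passed at -0.66 (adjusted p = 0.0248), but in no fit that left out a library, where it stood between -0.69 and -0.61. The Cnn1 call was also lost with DESeq2 on all libraries. Without shNT replicate 1 the count of lower markers was 1. Notch3 passed at 0.43 (adjusted p = 0.0390), but its value was 0.17 without shGrhl3 replicate 2 and did not pass there. The pericyte genes Kcnj8 and Abcc9 stood at 0.378 to 2.39 CPM and Rgs5 at 3.91 to 7.05 CPM, and none passed.

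Of 10 tested cardiac fibroblast markers 5 were lower, the direction of Pdgfrb, beside 17.9% of all genes, and 1 was higher, Col1a1, with a median log2 fold change of -0.24. The count of higher markers was 2 without shNT replicate 2 and without either shGrhl3 replicate. Tcf21 and Dcn, besides Pdgfra, had log2 fold changes of -0.71 and -0.62 (adjusted p = 2.62e-06 and 5.83e-06). Of 10 cardiomyocyte markers 5 were higher, beside 17.1% of all genes. They were led by the myosin gene Myh6 (20.4 and 20.8 against 241 and 261 CPM, adjusted p = 2.10e-17), then Tnni3 (2.59), Mybpc3 (1.12) and Tnnc1 (1.27). Actn2 (0.29) and Ryr2 (0.36) did not pass in the main fit (adjusted p = 0.0759 and 0.0589), but both did without shNT replicate 1 (0.45 and 0.50) and without shGrhl3 replicate 1 (0.36 and 0.55). Ryr2 also passed in several other fits of all 4 libraries, among them DESeq2 size factors (0.37), library size alone (0.39) and limma-voom (0.35). The only lower one, Nppa (-0.61, adjusted p = 0.0132), did not pass with DESeq2, without shNT replicate 1 or without shGrhl3 replicate 2. Of 10 endothelial markers 0 were higher and 2 lower, beside 17.1% and 17.9% of all genes. The defining Pecam1, Cdh5, Kdr and Tie1 stood at 2.57 to 10.4 CPM and did not pass, nor did Emcn (-0.51, adjusted p = 0.0773), which passed without shGrhl3 replicate 1 (-0.96). The endothelial calls, Tek and Cldn5, were each lost in a fit without a library, and both were lost with DESeq2 on all libraries. Cldn5 was at -1.93 with all libraries, -1.13 without shNT replicate 2 and -1.06 without shGrhl3 replicate 1, and Tek was at -0.56, -0.46 without shNT replicate 1 and -0.41 without shGrhl3 replicate 2. The part of these cell type markers in the values of Pdgfrb and Csf1r was not tested.

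The genes whose pattern over the 4 libraries lay nearest to each member were found by the root mean square difference of log2 CPM after centring each gene. Nearest to Csf1r were Mcfd2 (0.03), Perp (0.03) and Uqcr10 (0.04). Nearest to Csf1 were Fuca2, Dbf4 and Lman2, at 0.01 to 0.02. Pdgfrb lay nearest to Cmtr2, Hdac4 and Tada1 at about 0.01, and Il34, where counting error is large, to Zfyve19, Dbh and Plcb1 at 0.20 to 0.21. With 4 libraries in 2 groups many genes share such a pattern, so the nearness is a description only.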

How the data were processed

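RNA-seq counts of 4 mouse libraries, 2 per group, were used. CUT&Tag profiles of the H3K27ac mark (4 samples) were not analysed here. The authors deposited raw counts per gene as whole numbers. ChIPseeker, MACS2, Bowtie2 2.2.6, HISAT2 2.0.1, cutadapt 1.9.1 and the mm10 build are listed, without roles, per the submitters' processing notes. The counting program, annotation and strand setting, not given in the sources used here, can change counts of overlapping genes. Of 55359 rows, 1438 named no gene and were left out (at most 0.00872% of a library's counts).

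Genes were filtered with filterByExpr (minimum count 10), scaled by TMM factors and tested with edgeR 4.0.16 (R 4.3.3, robust quasi-likelihood fit, no covariate, two-sided), with Benjamini-Hochberg adjustment over all 15324 genes and a threshold of 0.05. The SE came from the F statistic. The text names the members, Grhl3, up to 4 called genes with the lowest p of each of 11 lists (all where 5 or fewer were called) and its defining genes, called neighbours among the 5 protein-coding genes on each side of each locus, and the 3 nearest patterns among genes with a mean log2 CPM of at least 3. Hmgxb3, Cdx1, Ahcyl1, Runx1, Irf8, Cebpa, Psen2, Ncstn, Nppa and genes named as not passing were chosen after their values were seen. The members and lists were chosen with earlier results of these data known. Library pairs of a group differed beyond sampling noise (chi-square per degree of freedom 14.1 and 8.66). Alternatives were other scalings, DESeq2 1.42.0, limma-voom (limma 3.58.1), other filters, a replicate block, each library left out, summed rows of 1 symbol and rRNA rows left out.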

Additional observations from a re-analysis of the deposited data

How the results depend on the processing

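The number of genes past the threshold was 5368 and ranged from 4234 with DESeq2 to 5433 with scaling by library size among fits of all 4 libraries, and from 3878 to 5057 with a library left out. Csf1r, Csf1 and Pdgfrb kept their direction under every alternative. With a library left out, Csf1r ranged from 1.24 to 1.38, Csf1 from 0.68 to 0.76, Pdgfrb from -0.46 to -0.27 and Il34 from -0.85 to 0.54 on the log2 scale. Pdgfrb did not pass without shNT replicate 2. Il34 was not tested under the stricter filter, which it did not pass. The count of lower leukocyte markers was 12 under that filter, where fewer genes were tested, against 19. With a library left out, the higher signalling genes ranged from 2 to 6 and the lower neighbours of the 3 loci from 1 to 2. Of 75 further genes named in the text, 58 kept their call under every alternative that tested them. Genes nearest in pattern, Lyz2 and Cebpa are not among the 75. No value past the threshold in either fit changed sign. For 8 of the 75 at least 1 alternative gave no test.

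The titles number the libraries 1 and 2 in both groups but do not say that a number marks a shared source, and same-numbered libraries did not deviate together (r = -0.06 across genes). With the number as a replicate block 4889 genes passed, and Csf1r, Csf1 and Pdgfrb stood at 1.30, 0.72 and -0.36. Under it Ptprz1 (0.54), Emcn (-0.54) and Ryr2 (0.36) passed and Runx1 (-0.34) did not. Depth limits Il34 and Grhl3, whose counts of 10 to 31 carry large counting error.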
